A study of Mus musculus with 6 samples.

Results

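The Fc receptor genes measured in heat-exposed mouse testis were Fcgr1, Fcgr2b, Fcgr3, Fcgr4, Fcer1g, Fcer1a, Fcrla and Fcrlb, which are 8 of the 35019 gene names on the array. A probe was taken when the scanner tables gave it one of these gene names, and each gene had 1 probe. The arrays compared 2 strains, both as males of 3 months kept specific pathogen-free, whose scrotum was heated once to 43°C for 20 min and whose testes were taken 10 days later. B6 is C57BL/6 of wt genotype. B6.MRLc1-(D1Mit202–D1Mit403), called B6.MRLc1 below, is a congenic strain with an MRL-type segment of chromosome 1, from 67.97 to 81.63 cM per the labels, on C57BL/6. There were 3 arrays per strain, all from heated testes, which leaves every value a strain difference after heat. P-values measure the spread between these samples, which the design text counts as 3 mice of each strain.

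Fc receptors are cell-surface proteins that bind the constant part of antibodies and link antibody to the cells of innate immunity. The activating receptors for IgG in the mouse are encoded by Fcgr1 (high affinity), Fcgr3 and Fcgr4, and they signal through an activating motif (ITAM) on the common gamma chain encoded by Fcer1g. Fcgr2b encodes the inhibitory receptor, whose own inhibitory motif (ITIM) recruits the lipid phosphatase encoded by Inpp5d. Fcer1a encodes the IgE-binding chain of mast cells and basophils, and Fcrla and Fcrlb encode Fc receptor-like proteins found inside B cells. Macrophages, which lie between the tubules of the testis, are known carriers of the IgG receptors.

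By the array annotation (build mm9), 7 of the 8 probes lay on chromosome 1. Fcrlb, Fcrla, Fcgr2b, Fcgr4, Fcgr3 and Fcer1g lay in this order within 322.4 kb, and Fcer1a lay 1992 kb beyond Fcer1g. The Fcgr2b probe was at chr1:172890988-172891047, the Fcgr4 probe at chr1:172959738-172959797, the Fcgr3 probe at chr1:172984129-172984188 and the Fcer1g probe at chr1:173159794-173159853. The Fcgr1 probe was on another chromosome, at chr3:96086839-96086898. The Fcgr4 probe is on the plus strand and the other 4 are on the minus strand. The bases that gave the measured signals are shown from the 5′ end, 30 for most probes and the whole probe of 60 for Fcgr3. Their place in exons was not analysed here.
Fcgr2b probe, first bases: acttctgtgagtcctgaaaccaacagacac
Fcgr4 probe, first bases: ccaagaagcgattcttcagaattttacact
Fcer1g probe, first bases: aggtccccatctccgttaaagacttactca
Fcgr1 probe, first bases: ccacatgtgcagggcatgcagacacagaca
Fcgr3 probe, whole: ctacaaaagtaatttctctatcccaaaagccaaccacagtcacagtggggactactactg

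Fcgr2b and Fcgr3 are known to be closely alike in sequence over their extracellular parts. How far the Fcgr3 probe also binds Fcgr2b transcripts was not tested, and its signal is uncertain to that extent.

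The promoters of the 3 receptor genes whose strains did not overlap are shown next, as the 250 bases before the start in RefSeq (build GRCm38.p6, not the array's build). They are from the reference mouse genome, and the MRL sequence was not used here. All 8 genes had a promoter in that table; Fcgr3 had 2 starts there, and the more upstream one was taken. The Fcgr2b window is chr1:170976072-170976321, the Fcgr3 window chr1:171059404-171059653 and the Fcer1g window chr1:171234350-171234599, each on the minus strand. Capitals mark GAGGAA on either strand, a purine-rich hexamer of the kind that the myeloid factor PU.1 binds.
Fcgr2b promoter: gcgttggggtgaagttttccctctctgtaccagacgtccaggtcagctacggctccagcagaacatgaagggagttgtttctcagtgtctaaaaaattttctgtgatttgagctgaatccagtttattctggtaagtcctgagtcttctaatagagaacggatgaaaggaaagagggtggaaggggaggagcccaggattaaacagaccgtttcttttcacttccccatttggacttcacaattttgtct
Fcgr3 promoter: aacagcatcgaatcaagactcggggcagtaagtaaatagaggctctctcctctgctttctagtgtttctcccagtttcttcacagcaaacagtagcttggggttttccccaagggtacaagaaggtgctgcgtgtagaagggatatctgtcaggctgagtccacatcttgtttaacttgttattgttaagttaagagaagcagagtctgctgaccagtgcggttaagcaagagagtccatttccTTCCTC
Fcer1g promoter: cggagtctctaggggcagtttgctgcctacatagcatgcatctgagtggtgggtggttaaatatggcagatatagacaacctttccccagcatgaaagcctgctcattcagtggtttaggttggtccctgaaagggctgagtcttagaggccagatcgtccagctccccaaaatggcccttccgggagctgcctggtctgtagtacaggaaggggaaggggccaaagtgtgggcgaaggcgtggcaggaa

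This hexamer, searched on both strands, was present in 23.3% of the 32851 promoter windows of this length. Among the receptor genes, Fcgr3 held it 6 bases before the start, Fcgr4 22 bases and Fcgr1 55 bases before. It was also present once each in the windows of Fcrla, Fcrlb and Fcer1a, and these letters were not in the Fcgr2b and Fcer1g windows. The interferon-type motif TTCNNNGAA, found in 7.02% of windows, was in that of Fcgr1 alone among the 8, and the core of the interferon-stimulated response element, found in 2.98%, was in those of Fcgr4 and Fcrla, with no overlap with the hexamer. A match is a description of letters and not of a bound site.

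Levels below are log2 of the processed intensity divided by the array's own 75th percentile, so that 0 is the brightness of that percentile. A level of 1 probe was not set against that of another. Differences in log2 units are B6.MRLc1 minus B6, each with its standard error (SE) from limma's fit over 36626 probes. A probe was called at an adjusted p under 0.05 (limma, Benjamini-Hochberg). The receptor probes fell into 5 that were tested, all well above background on all 6 arrays (Fcgr1, Fcgr2b, Fcgr3, Fcgr4 and Fcer1g), and 3 that did not pass the filter on dim probes (Fcer1a, Fcrla and Fcrlb).

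The inhibitory receptor gene Fcgr2b was lower in B6.MRLc1 testes on every array. Its probe was printed in 10 spots, whose mean intensity was 1292 units on B6 array 1, 1008 on array 2 and 702.9 on array 3. In B6.MRLc1 it was 356.2 units on array 1, 380.6 on array 2 and 313.2 on array 3. All 30 B6 spots, the dimmest at 667.5 units, were brighter than all 30 B6.MRLc1 spots, the brightest at 423.8 units. The spots repeat 1 probe and are not replicates of a strain, and these intensities are not scaled between arrays. Of all tested probes, 13.3% had every B6.MRLc1 array below every B6 array. Spots of 1 array varied by 3.6% to 6.15% (coefficient of variation), an SD of at most 0.09 on the log2 scale, against 0.34 among the B6 arrays.

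On the log2 scale, the Fcgr2b level was 0.62 ± 0.34 in B6 and -0.72 ± 0.11 in B6.MRLc1 (SD, n = 3). The difference was -1.34 (SE 0.18, 95% interval -1.78 to -0.91), or 2.54-fold lower, with an adjusted p of 0.0345 in limma. Of the 5 tested receptor probes this 1 was called, against 1.82% of all tested probes, and 1.58% of all tested probes were called lower. The call did not hold without B6 array 1 (difference -1.18, adjusted p 0.087 in limma), B6 array 2 (-1.34, 0.12), B6.MRLc1 array 1 (-1.38, 0.101), B6.MRLc1 array 2 (-1.37, 0.0951) or B6.MRLc1 array 3 (-1.28, 0.084). It held without B6 array 3 (-1.52, 0.0318). It was also lost with no filter on dim probes (-1.34, adjusted p 0.0847) and with same-numbered arrays fitted as a block (-1.34, adjusted p 0.101). With 1 array fewer, the fits also called fewer of all probes, between 45 and 367 against 665.

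**Figure D1:**
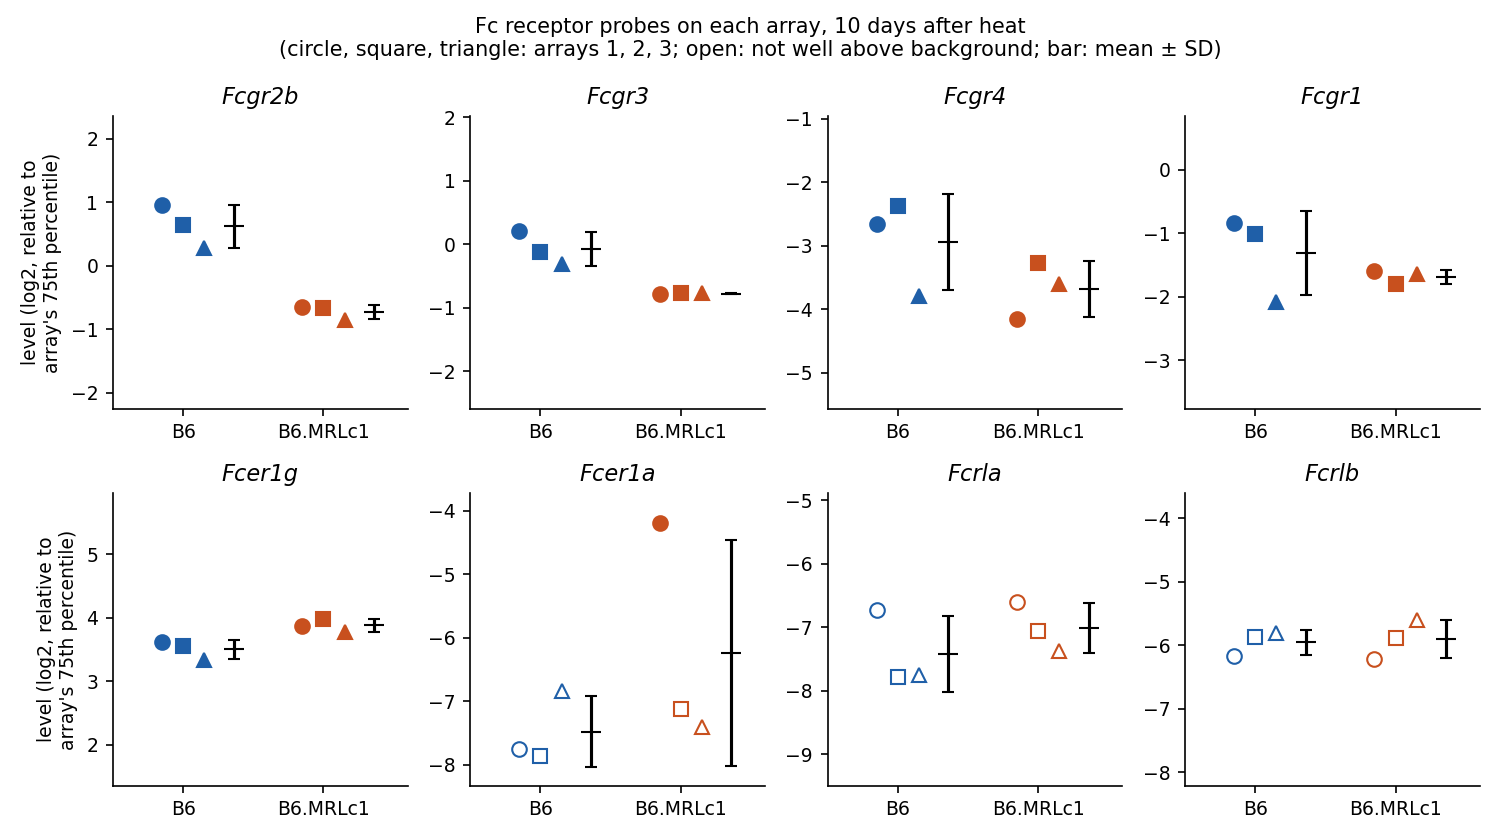
Level of each receptor probe on each array (log2 relative to the array's 75th percentile), with the mean and SD of each strain (n = 3); every panel spans the same range of log2 units. The B6 arrays lie above the B6.MRLc1 arrays for Fcgr2b and Fcgr3 and below them for Fcer1g, and open points were not well above background.

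Among the activating receptors, Fcgr3 showed the same order of strains with a smaller gap. Its levels were 0.21, -0.13 and -0.31 on the B6 arrays, in array order, and -0.78, -0.77 and -0.77 on the B6.MRLc1 arrays. The strains did not overlap, and the B6.MRLc1 arrays lay closer together than the B6 arrays. The difference of -0.70 (SE 0.14, 95% interval -1.04 to -0.37) missed the threshold, with an adjusted p of 0.0718 in limma. It passed with normexp background correction (-0.55, adjusted p 0.0375), with a variance trend (-0.70, 0.0274) and with array weights (-0.68, 0.0333). In the other 16 of 19 alternatives it missed the threshold. The adjusted p in limma was 0.0612 to 0.205 without 1 array, 0.108 with no filter on dim probes and 0.164 with the replicate block.

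Fcgr4, the other activating receptor gene next to Fcgr3, had overlapping strains. Its levels were -2.66, -2.37 and -3.80 on the B6 arrays and -4.15, -3.27 and -3.60 on the B6.MRLc1 arrays, in array order. B6 array 3 lay with the B6.MRLc1 arrays. The difference was -0.73 (SE 0.42, 95% interval -1.77 to 0.31; adjusted p 0.408 in limma), an interval that holds both the Fcgr2b difference and 0. It was -0.45 without B6 array 2 and -1.16 without B6 array 3 (adjusted p 0.701 and 0.125 in limma), and -0.34 with normexp (0.322).

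Fcgr1, the high-affinity receptor gene outside chromosome 1, likewise had 1 low B6 array. Levels were -0.84, -1.02 and -2.08 in B6 and -1.60, -1.81 and -1.65 in B6.MRLc1. B6 array 3 was below every B6.MRLc1 array, and the difference was -0.37 (SE 0.33, 95% interval -1.18 to 0.44; adjusted p 0.578 in limma). It was -0.14 without B6 array 1 (adjusted p 0.882 in limma), -0.22 without B6 array 2 (0.829) and -0.75 without B6 array 3 (0.0575), so its size rests on which B6 array is left out.

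The shared signalling chain gene, Fcer1g, had the opposite order of strains. Its levels were 3.62, 3.56 and 3.34 in B6 and 3.88, 3.98 and 3.78 in B6.MRLc1, so every B6.MRLc1 array was above every B6 array. The difference was 0.37 (SE 0.099, 95% interval 0.13 to 0.62) and missed the threshold, with an adjusted p of 0.136 in limma. Groups that do not overlap were common on these arrays: 13.3% of tested probes had every B6.MRLc1 array lower and 13.7% had every one higher, together 27%.

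Comparisons within an array do not depend on the scaling between arrays, and 5 such pairs of receptor probes were compared, a choice made after the values were seen. A gap depends on how each probe binds, so only its change between strains is read. The log2 gap of Fcgr2b over Fcgr3 was 0.74, 0.77 and 0.58 on the B6 arrays and 0.14, 0.11 and -0.07 on the B6.MRLc1 arrays. These gaps did not overlap and narrowed by 0.64 on average, from 0.70 ± 0.10 to 0.06 ± 0.11 (SD, n = 3; two-sided exact permutation p 0.1, the smallest that 3 against 3 allows; adjusted over the 5 pairs 0.125). The inhibitory to gamma-chain gap, Fcgr2b minus Fcer1g, was -2.88 ± 0.20 in B6 and -4.60 ± 0.06 in B6.MRLc1, a difference of -1.72 (exact permutation p 0.1, adjusted 0.125). The gap of Fcgr3 to Fcer1g differed by -1.07 and that of Fcgr2b to Fcgr1 by -0.97 (both exact permutation p 0.1, adjusted 0.125). The gap of Fcgr2b to Fcgr4 differed by -0.61, with overlapping strains (exact permutation p 0.2, adjusted 0.2). No pair can pass 0.05 at this number of arrays.

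Of the 3 receptor probes that were not tested, those of the B-cell proteins were dim throughout. Fcrla intensity ran from 2.7 to 6.28 units and Fcrlb from 7.52 to 11.6 units, and neither was well above background on any of the 6 arrays. Fcer1a was well above background on B6.MRLc1 array 1 alone, at 30.4 units, and ran from 2.79 to 5.08 units on the other arrays. Only a bound could be had for these genes, and no strain difference is given.

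The pathway around the receptors was read from 5 lists of genes, in which each gene was represented by its brightest probe. Apart from Fcer1g, 66 listed genes were tested and 0 were called in limma, against 2.03% of the 25275 genes tested (1.79% lower). Of the 3 tested adaptor genes with or partnering ITAMs, Tyrobp, which encodes a second ITAM adaptor (DAP12), differed by -0.25 (adjusted p 0.427), and the list's median was -0.05. Among 33 tested genes of activating ITAM signalling the median was -0.07, beside 0.01 over all genes. Syk, the kinase that docks on phosphorylated ITAMs, was lowest in p. Its mean level was 1.59 ± 0.17 in B6 and 0.97 ± 0.06 in B6.MRLc1 (SD, n = 3), without overlap. The difference was -0.62 (SE 0.10, adjusted p 0.0506 in limma), just short of the threshold. Pik3r1, a regulatory subunit of PI 3-kinase, differed by 0.33 (adjusted p 0.159).

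On the inhibitory side, 23 genes were tested, 0 were called in limma and the median was -0.01. Inpp5d, the lipid phosphatase that acts downstream of Fcgr2b, differed by -0.07 (SE 0.15, adjusted p 0.842), and the tyrosine phosphatase gene Ptpn6 by 0.02 (SE 0.19, adjusted p 0.956). The lowest p-values were those of Cblb, a ubiquitin ligase gene (0.42, adjusted p 0.122), and Ptpn11 (0.13, adjusted p 0.29).

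The list of other receptors for antibody held transporters, cytosolic receptors and Fc receptor-like genes. Its 7 tested genes had a median of -0.03 with 0 called in limma. Fcgrt, which encodes the neonatal Fc receptor, differed by -0.03 (SE 0.12, adjusted p 0.902), and Trim21, a cytosolic antibody receptor gene, by -0.04 (SE 0.12, adjusted p 0.882). Fcrl5, an Fc receptor-like gene, differed by -0.16 (SE 0.13, adjusted p 0.538) and Fcmr, the IgM receptor gene, by -0.39 (SE 0.39, adjusted p 0.623). Of 13 listed antibody chain genes 2 were found by name on the array. Jchain, which joins IgA and IgM, was the 1 tested and differed by 0.51 (SE 0.23, adjusted p 0.305).

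Markers of the cells that carry Fc receptors were read beside the receptors. In whole testis, fewer cells of a type and less RNA per cell cannot be told apart. All 25 macrophage markers were tested and 0 were called in limma; 19 were below 0 and the median was -0.18. Vsig4, of resident macrophages, differed by -1.15 (adjusted p 0.146) and the chemokine receptor gene Cx3cr1 by 0.79 (adjusted p 0.16). Summed macrophage levels, in units of the array's 75th percentile, ran from 136 to 200 in B6 and from 156 to 158 in B6.MRLc1, which overlap.

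The score of a list on an array was taken gene by gene, as the log2 signal less that gene's 6-array mean, and then as the median over the list. Macrophage scores were 0.38, 0.14 and -0.26 on the B6 arrays and -0.16, -0.04 and -0.08 on the B6.MRLc1 arrays. Pan-leukocyte scores, over 10 genes, were 0.41, 0.22 and -0.29 in B6 and -0.14, -0.06 and -0.16 in B6.MRLc1. Of these 10 genes 0 were called in limma. Cd37, a tetraspanin gene, differed by -0.27 (adjusted p 0.291) and Cd48 by -0.45 (adjusted p 0.306). The Cd48 probe lay on chromosome 1, 744.2 kb from the Fcgr2b probe, so this score includes a gene near the receptors. On both scores B6 arrays 1 and 2 were high, and B6 array 3 was below every B6.MRLc1 array, the order that Fcgr1 also had. Fcgr2b and Fcgr3 were above every B6.MRLc1 array on B6 array 3 as well. Within B6, both fell from array 1 to 2 to 3, the order of both scores. Less their 6-array mean, Fcgr2b was at 1.00, 0.69 and 0.33 there and Fcgr3 at 0.64, 0.30 and 0.12. The part of cell content in these differences was not tested.

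Each receptor was also set against these scores within an array, an alternative added after the data were seen. Relative to the macrophage score, Fcgr2b differed by -1.17 between strains, Fcgr3 by -0.52, Fcgr4 by -0.55, Fcgr1 by -0.19 and Fcer1g by 0.55. Relative to the pan-leukocyte score, the differences were -1.11, -0.47, -0.50, -0.14 and 0.60 in the same order. Such a scaling moves every probe of an array alike, with the median of all probes at 0.19 and 0.25, and these values are given as sizes without a test.

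**Figure D2:**
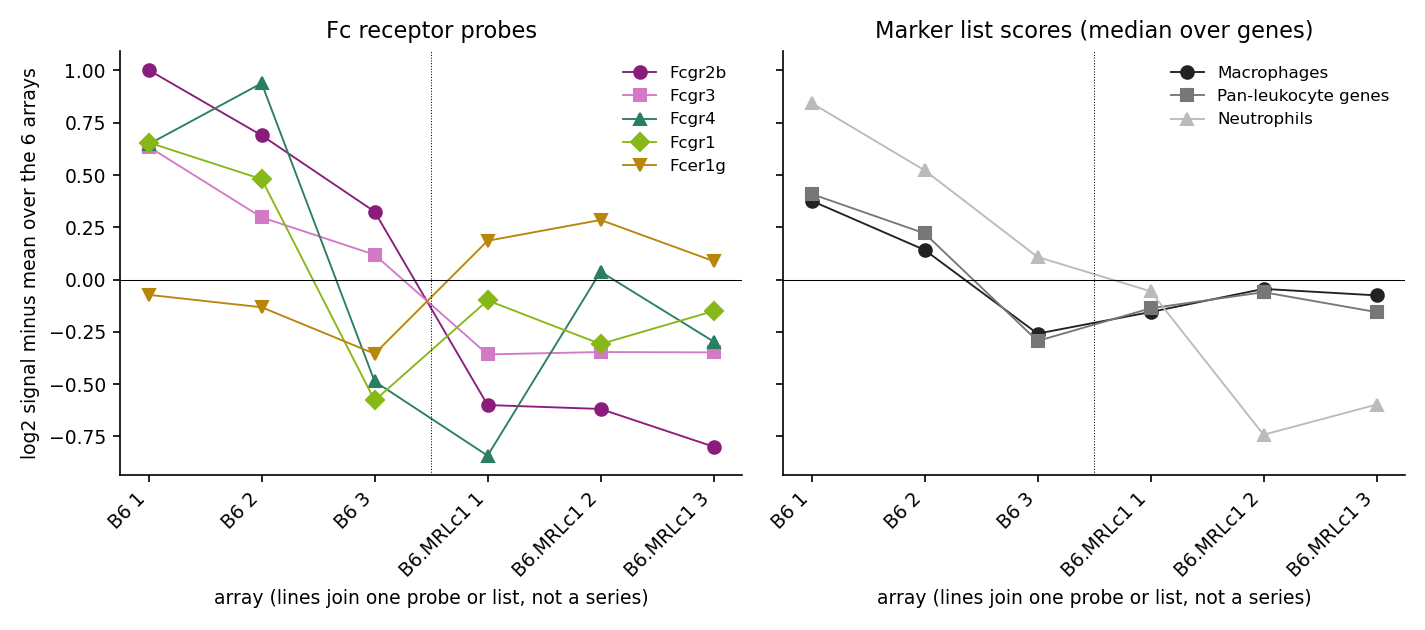
Log2 signal of the 5 tested receptor probes on each array, minus the probe's mean over the 6 arrays (left), and the scores of 3 leukocyte marker lists on the same scale (right). Fcgr1 and Fcgr4 are low on B6 array 3, as are the macrophage and pan-leukocyte scores, while Fcgr2b and Fcgr3 stay above all B6.MRLc1 arrays there.

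Neutrophils carry activating and inhibitory IgG receptors too. Of 13 listed genes 5 were tested, with a median of -1.10 and 0 called in limma, and S100a8, Cxcr2, Mpo, Ngp, Ltf, Retnlg, Mmp8 and Mmp9 did not pass the filter. Camp, a granule peptide gene, differed by -1.10 (SE 0.19, adjusted p 0.0566) and Ly6g by -1.68 (SE 0.39, adjusted p 0.107). With overlapping strains, S100a9 differed by -3.21 (SE 1.38), Csf3r by 0.11 (SE 0.11) and Elane by -0.03 (SE 0.08). Their adjusted p was 0.289, 0.64 and 0.885 in limma. S100a9 was well above background on 3 B6 arrays but on only 1 B6.MRLc1 array, so the size of its difference rests on background signal. Neutrophil scores were 0.84, 0.52 and 0.11 in B6 and -0.06, -0.74 and -0.60 in B6.MRLc1, which do not overlap. B6 was higher, as for Fcgr2b, but this order was not particular to neutrophils. Spermatid scores ran from 0.51 to 1.62 in B6 and from -1.41 to -0.40 in B6.MRLc1. Scores of spermatocytes and spermatogonia and of other antibody receptors were also higher in B6 without overlap, and those of mast cells narrowly so. Summed neutrophil levels ran from 114 to 144 in B6 and from 126 to 147 in B6.MRLc1, but Csf3r alone made up 98.2% to 99.3% of each sum. Without it they ran from 1.23 to 2.05 in B6 and from 1.05 to 1.16 in B6.MRLc1. The part of these cells in the Fcgr2b and Fcgr3 differences was not tested.

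The other carriers varied in direction. B-cell markers had a median of 0.06 over 10 tested genes, T and NK cell markers 0.03 over 11, and dendritic cell markers -0.05 over 7, with 0 called in limma in each. Ebf1, a B-cell transcription factor gene, differed by 0.35 (adjusted p 0.0782), Lck, a T-cell kinase gene, by -0.29 (0.37) and Cd3e by 0.10 (0.51). Itgax, which encodes the integrin CD11c, differed by -0.83 (SE 0.19, adjusted p 0.0974) and Clec10a by -0.71 (SE 0.27, adjusted p 0.241). Summed B-cell levels ran from 3.49 to 3.99 in B6 and from 3.63 to 3.85 in B6.MRLc1, and Ms4a1, Pax5 and Blk did not pass the filter.

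Mast cell markers had a median of -0.40 over 7 tested genes, with 0 called in limma and 4 below 0. Without overlap, 3 were lower and 1 higher, beside 13.3% and 13.7% of all tested probes. Hdc, which makes histamine, differed by -0.40 (SE 0.07, adjusted p 0.0545), Il1rl1, the IL-33 receptor gene, by -0.71 (SE 0.14, adjusted p 0.0761) and Gata2 by -0.45 (SE 0.11, adjusted p 0.117). In the other direction, Kit differed by 0.47 without overlap (SE 0.21, adjusted p 0.294 in limma). The protease genes Mcpt4 and Tpsb2 differed by 0.30 and 0.20 with overlap (SE 0.60 and 0.09, adjusted p 0.822 and 0.296 in limma). Mast cell scores ran from -0.11 to 0.21 in B6 and from -0.24 to -0.11 in B6.MRLc1; the lowest B6 score and the highest B6.MRLc1 score were nearly equal. Summed levels ran from 19.3 to 21 and from 17.8 to 22.8, but Hdc alone made up 44.2% to 65.4% of each sum. Without it they ran from 7.11 to 7.55 in B6 and from 7.89 to 12.7 in B6.MRLc1. Kit, also in these sums, is in the list of spermatocytes and spermatogonia as well. Ms4a2, which encodes the beta chain of the IgE receptor, did not pass the filter.

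Markers of the cells that make up the testis were read in the same way. Spermatid markers had a median of -1.99, with 15 of 16 below 0 and 4 called lower in limma, Acr (-0.91), Spaca7 (-2.35), Catsper1 (-3.00) and Dkkl1 (-1.98). In B6.MRLc1, Catsper1 was well above background on 0 arrays and Spaca7 on 1, so the sizes of these differences rest on background signal. Their summed level ran from 21.2 to 51.8 in B6 and from 5.87 to 10.7 in B6.MRLc1. Spermatocyte and spermatogonium markers had a median of -0.06, with 5 of 13 lower without overlap and Ldhc called lower (-3.18, adjusted p 0.0479 in limma). Of all tested genes 1.79% were called lower, and of all tested probes 13.3% were lower without overlap. Sertoli cell markers had a median of 0.10, with Fshr at 0.33 and Gata4 at 0.23 (adjusted p 0.13 and 0.138). Leydig cell markers had a median of 0.16, with Hsd3b6 at 1.02 and Hsd3b1 at 0.31 (adjusted p 0.0701 and 0.192). Markers of myoid cells and endothelium had a median of 0.04, with Vwf at -0.21 and Myh11 at 0.21 (adjusted p 0.192 and 0.236); 0 genes of these last 3 lists were called in limma.

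Markers of blood and of tissue beside the testis were spread more widely. Red cell markers had a median of 0.82 with Alas2 called lower (-1.04, adjusted p 0.0099 in limma). Of all tested genes 1.79% were called lower and 0.245% higher. Adipocyte markers had a median of 1.04, with 0 of 8 below 0 and Pparg called higher (0.38, adjusted p 0.0441), and summed levels of 5.49 to 7.62 in B6 and 8.82 to 16.5 in B6.MRLc1. Of the epididymis markers Defb42 alone was tested, at 1.06 (adjusted p 0.52). The part of these cells in the receptor differences was not tested.

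The receptor genes lie in a stretch of chromosome 1 where calls were frequent. Within the Fcrlb to Fcer1g span and 500 kb to each side, 49 other probes were tested, of which 8 were called higher and 5 lower (26.5%, against 1.82% of all probes). These 49 probes carried 36 names, so probes are not separate genes. Apoa2 and a region without a gene symbol each gave more than 1 of the higher calls. Between the Fcrlb and Fcgr3 probes there were 0 other tested probes, so no neighbour shows how that stretch behaved. Between the Fcgr3 and Fcer1g probes 10 were tested, with 7 names, and 4 were called higher, Apoa2 more than once, and 1 lower.

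The called gene nearest to the IgG receptors was Cfap126, a cilium gene 166 kb from the Fcgr2b probe, at -1.52 (SE 0.23, adjusted p 0.045 in limma); its other probe gave -1.40 (adjusted p 0.0544). Pcp4l1 and Tomm40l, between Cfap126 and Fcer1g, rose by 0.84 and 0.82 (adjusted p 0.0276 and 0.0292 in limma). Apoa2, which lies beside Fcer1g and encodes an apolipoprotein of HDL, rose by 1.28 on 1 probe and 0.34 on the other (adjusted p 0.021 and 0.0492). Beyond Fcer1g, Ppox fell by 1.01 and Klhdc9 fell by 0.71 (adjusted p 0.0115 and 0.0234), while Itln1, a lectin gene, stayed at background on all B6 arrays and rose by at least 4.24-fold in B6.MRLc1 (adjusted p 0.0195).

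Probes of 1 gene in this stretch could disagree. B4galt3, a galactosyltransferase gene, was -1.92 on 1 probe (SE 0.12, adjusted p 0.00963 in limma) and 0.24 on a probe beside it (SE 0.11, adjusted p 0.304). Adamts4, a protease gene, was at background in all B6.MRLc1 samples by 1 probe, at least 22.7-fold lower (adjusted p 0.00483), and differed by 0.30 on its other probe (SE 0.18, adjusted p 0.429). Each receptor gene had only 1 probe, so for the receptor genes inside the segment less RNA and a base difference from MRL under the probe cannot be told apart here.

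Fcer1a and Fcgr1 had other surroundings. Within 500 kb of the Fcer1a probe 5 probes were tested and 1 was called (20%, against 1.82% of all probes). This was Ifi208, an interferon-inducible gene, at -1.06 (adjusted p 0.0451 in limma), while its other probe gave -0.20 (adjusted p 0.161). Around Fcgr1, 77 probes were tested and 1 was called (1.3%), Car14, a carbonic anhydrase gene, which rose by 0.53 (adjusted p 0.0468).

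**Figure D3:**
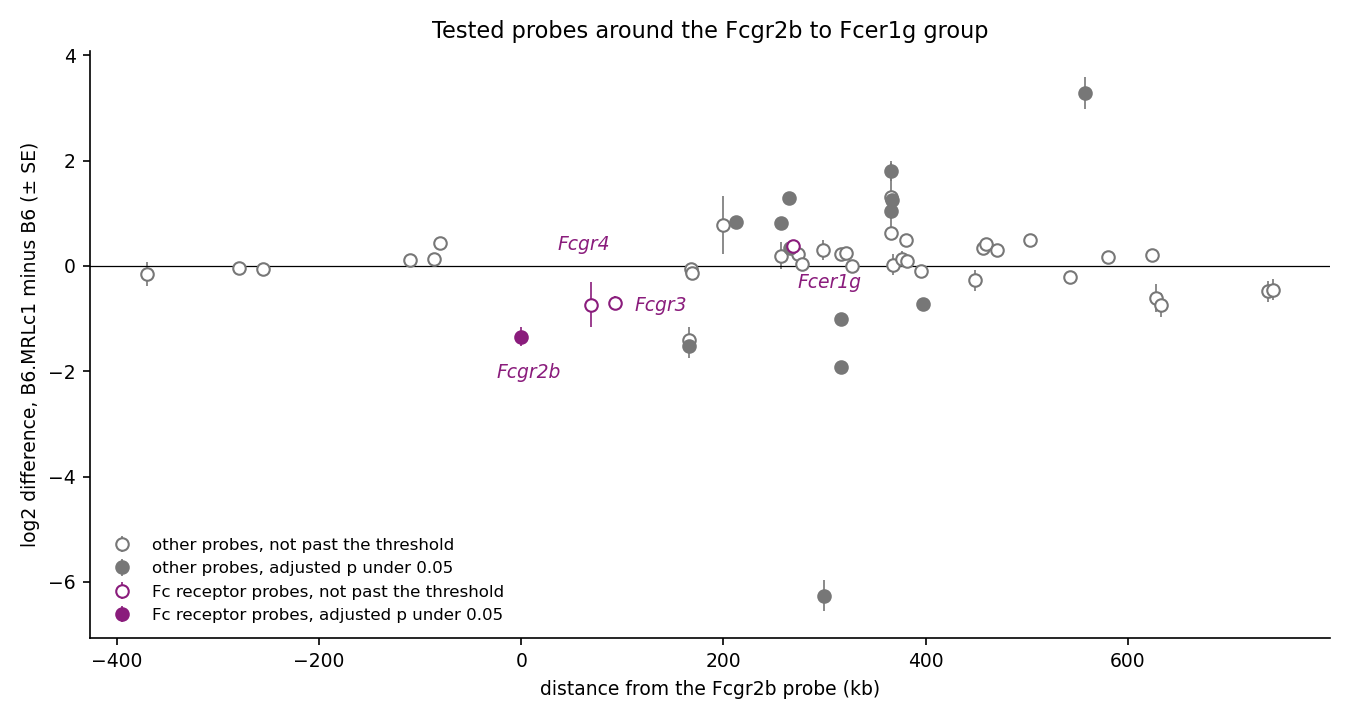
Strain difference (log2, B6.MRLc1 minus B6, ± SE) of each tested probe against its distance in kb from the Fcgr2b probe; filled points had an adjusted p under 0.05. Fcgr2b, Fcgr4 and Fcgr3 lie below 0, Fcer1g lies above 0, and no other tested probe lies between Fcgr2b and Fcgr3.

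How alike the receptor probes were over the 6 arrays is given as Pearson's r, which pools both strains and so includes the gap between them. Fcgr2b and Fcgr3 had an r of 0.985, whereas Fcgr2b had 0.705 with Fcgr4, 0.642 with Fcgr1 and -0.71 with Fcer1g. Fcgr1 and Fcgr4 had 0.787. Fcgr2b and Fcgr3 had the highest r of the 10 pairs, with the reservation about the Fcgr3 probe given above.

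Among 19874 probes well above background on all arrays and with a gene symbol, those most like Fcgr2b over the 6 arrays were Plppr3 (r 0.9983), Camk2n2 (0.9981) and Car12 (0.9972). All 3 were called lower, by limma differences of -0.91, -1.04 and -2.29 (adjusted p 0.0442, 0.0396 and 0.0431). These genes were picked for following a called probe over the same arrays. Their calls were thus nearly fixed by the choice and add no support. Most like Fcgr3 were Ocel1, Acsl1 and Limd2 (r 0.9982, 0.9979 and 0.9979). Most like Fcgr4 were Zbp1 (0.9992), Pmm1 and Irgm1 (both 0.9945), of which Zbp1 and Irgm1 are interferon-induced genes. Ccl12, a chemokine gene, was most like Fcgr1 (0.9942), followed by Atp8b5 (0.9927) and Fgd2 (0.9923). For Fcer1g they were Kpna3 (0.9936), Prxl2a (0.9929) and Zbtb7b (0.9922).

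Spots well above background made up 68.5% to 69% on the B6 arrays and 58% to 64.7% on the B6.MRLc1 arrays, and the 75th percentile ran from 558 to 666.4 intensity units, with 0 saturated spots. All 6 arrays lay on 1 slide, with B6 in row 1 and B6.MRLc1 in row 2, which leaves the row and the strain as 1 factor that cannot be told apart.

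**Figure D4:**
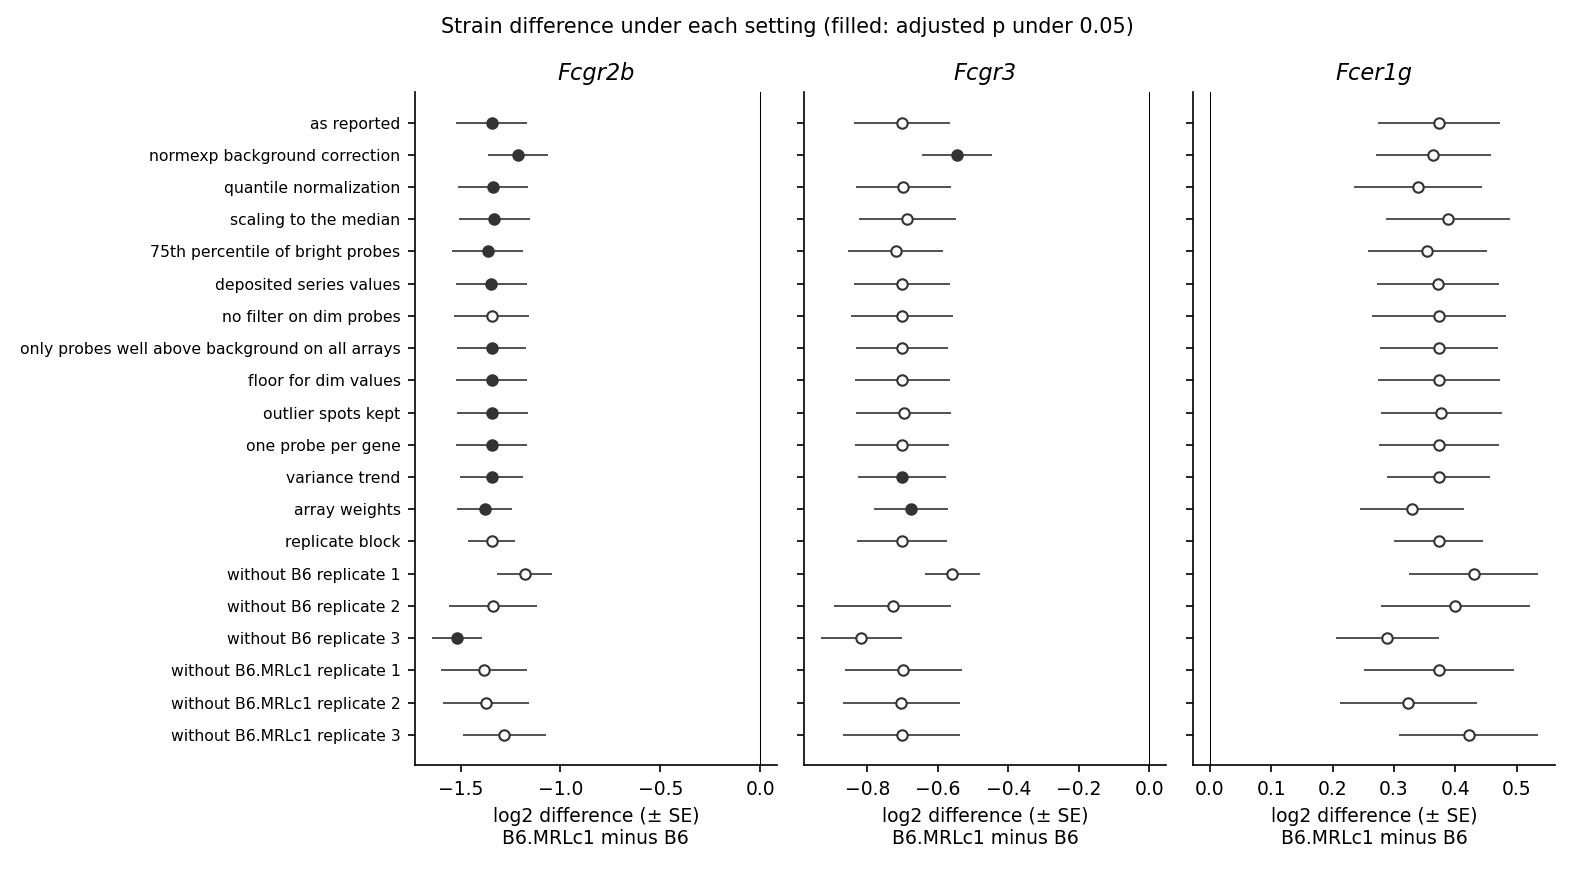
Strain difference (log2, ± SE) of Fcgr2b, Fcgr3 and Fcer1g in the reported fit and under 19 alternatives; filled points had an adjusted p under 0.05. Fcgr2b stays between -1.52 and -1.18, Fcgr3 between -0.82 and -0.55 and Fcer1g between 0.29 and 0.43, and 12 of the 19 alternatives kept the call of Fcgr2b.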

How the data were processed

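Per the labels, Cy3-labelled cRNA from 0.1 ug of total RNA per testis was hybridised to one-colour arrays. Intensity values in the deposited scanner tables are linear, and per the file headers background-subtracted and detrended but not scaled between arrays. They also hold flags of 0 or 1 (bright, outlier). The submitters' processing notes name Feature Extraction 9.5.3, whereas the file headers give another version. The authors' deposited series table of log2 values was an alternative.

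Spots were divided by the array's 75th percentile and log2 was taken. Probes well above background on at least 3 arrays, with values on at least 4, were kept (36626 of 55681). Strains were compared with limma 3.58.1 (R 4.3.3) without covariates, tested on simulated data. Members, lists and tests were chosen with earlier results of these data known. Named were all receptor genes, of each list the called genes or the 2 lowest p-values, called neighbours with a symbol within 500 kb, and the 3 probes most like each receptor. Inpp5d, Ptpn6, Fcgrt, Trim21, Gata2, Kit, Mcpt4, Tpsb2, S100a9, Elane and Csf3r were named outside this rule, after values were seen. Symbols followed RefSeq accessions where matched (27235 probes, all 8 receptor probes). Alternatives covered background correction, scaling, filters, variance model, replicate block and leaving out each array.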

Additional observations from a re-analysis of the deposited data

Results flagged for a closer look

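The Fcer1a probe, which entered no comparison, gave a signal well above background on B6.MRLc1 array 1, at 30.4 intensity units, and on no B6 array. Its level there was -4.20, just above the lowest level well above background on that array (-4.49), and the other 5 arrays lay between -7.85 and -6.83. Of the 11 listed mast cell and basophil genes, 6 were also highest on that array, but only 3 of these were well above background there: the protease genes Mcpt4 (-2.26) and Tpsb2 (-0.92) and the carboxypeptidase gene Cpa3 (-4.27). Ms4a2, the partner of Fcer1a in the IgE receptor, was at -6.46, not well above background. That array had the highest additive error of the 6 (5.68 intensity units, against 2.66 to 4.45) and the lowest share of spots well above background (58%). Of all probes that did not pass the filter on dim probes, as Fcer1a did not, 46.7% were highest on that array, against 17.2% of the tested probes. For Mcpt4 the other arrays ran from -4.36 to -2.59, so B6 array 3 was close to it. The relation was not tested.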

How the results depend on the processing

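No direction of the 5 tested receptor probes reversed under the 21 alternatives. Leaving aside the macrophage and pan-leukocyte scalings, which add a constant per array and give no usable p, 19 remain. In these Fcgr2b stayed between -1.52 and -1.18 and kept its call in 12. It was lost with no filter on dim probes (-1.34, adjusted p 0.0847 in limma; 55 probes called in all) and with the replicate block (-1.34, adjusted p 0.101; 2 called in all). Leaving out 1 array at a time gave -1.52 to -1.18 for Fcgr2b, with 45 to 367 probes called in all, against 665. The number of receptor probes called was 1 as reported, 2 with normexp, a variance trend or array weights, 0 with no filter or the block, and 0 to 1 without 1 array. Fcgr4 ranged from -1.16 to -0.34 and Fcgr1 from -0.75 to -0.14 over the 19, without a call. Same-numbered arrays of the strains had correlations of deviations of -0.03, 0.143 and 0.0879, against -0.14 to 0.0548 for the other pairs of arrays. Same-numbered arrays also shared a slide column. Whether the numbers pair the samples cannot be told from these values. The counts over all probes also moved with normexp (1000), the floor for dim values (413), the deposited values (432), the trend (1388) and array weights (1449). Higher calls made up 87 of 665 as reported, 301 of 1000 with normexp and 119 of 432 in the deposited values. Signal over background limits Fcer1a, Fcrla and Fcrlb, for which no difference could be measured.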
